A study of Mus musculus with 6 samples.

Results

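The thin filament genes described here encode the actin-based filaments of the cardiac sarcomere and the proteins that regulate, measure, or cap them. The group was chosen by gene name and holds 10 genes (*Acta1*, *Actc1*, *Tnnt2*, *Tnni3*, *Tnnc1*, *Tpm1*, *Lmod2*, *Tmod1*, *Neb*, and *Nebl*) of the 56923 listed, and all 10 were among the 17212 genes that passed the filter on low counts and were tested. mRNA-Seq was performed on left ventricles (LVs), which the sample labels call heart, of 12-week-old animals, 3 WT and 3 *Lztr1* R409C/+, each sequenced as a library of its own. *Lztr1* R409C/+ mice are a knock-in model of Noonan syndrome with cardiac hypertrophy. They carry 1 R409C allele of *Lztr1*, which encodes an adaptor for the degradation of RAS proteins, in every cell of the body. The study's methods state that the line was made with CRISPR/Cas9 and backcrossed to C57BL/6J. They also state that females showed cardiac hypertrophy too, but that only males were used to assess phenotypes of the mutation. The sample labels give these genotypes as "Mutant" and "Wild-type" and do not name litters or batches, and the gene counts do not show the mutated base.

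In the thin filament, actin polymerizes into a double strand with tropomyosin along its groove, and the troponin complex sits on tropomyosin at regular intervals. Calcium binds to troponin C, the inhibition by troponin I is released, and troponin T passes the signal to tropomyosin, which moves away from the myosin-binding sites. The adult ventricle uses mainly the cardiac forms of these proteins, whereas skeletal α-actin (*Acta1*) belongs to a program that the fetal and the overloaded heart are known to use more. The length of the filament is set at its pointed end by tropomodulin 1 (*Tmod1*), which caps it, and leiomodin 2 (*Lmod2*), which promotes its growth, and nebulette (*Nebl*) ties the filament to the Z-disc in the heart as the giant nebulin (*Neb*) does in skeletal muscle.

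The libraries held between 66130887 and 72641124 counts. Levels are given as CPM, that is counts relative to the total of a library after TMM scaling. A count of 3, the floor used for detection, was worth 0.0317 to 0.0541 CPM depending on the library, with counting error alone in view. The share of mitochondrially encoded genes was 13.8% in WT replicate 3 and 45.4% in *Lztr1* R409C/+ replicate 1, against 29.7% to 37.3% in the other 4 mice. The tissue label was checked against marker genes. The summed level of 6 cardiomyocyte markers (*Myh6*, *Ttn*, *Actn2*, *Mybpc3*, *Ryr2*, and *Pln*) was 27900 to 31500 CPM in WT mice and 18300 to 28000 CPM in *Lztr1* R409C/+ mice, with the lowest sum in replicate 1, and all 6 had a log2 fold change below 0 without passing the test. In that sum, *Myh6* was the largest part in WT mice (mean, 15210 CPM) and was lowest in *Lztr1* R409C/+ replicate 1 (6330 CPM). The other markers were also lowest in that mouse, except *Pln*, which was highest there (7060 CPM). Of 4 atrial markers, *Myl7* and *Sln* lay between 0 and 0.262 CPM. The sum of all 4, which *Nppa* dominated, was 38.1 to 76.6 CPM in WT mice, against 53.5 to 107.0 CPM in *Lztr1* R409C/+ mice. The summed level of 6 skeletal muscle markers did not exceed 2.07 CPM in any mouse. In these bulk samples, fewer cells of a type and less RNA per cell cannot be told apart.

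The promoters of both sarcomeric actin genes are shown because their ratio is the isoform comparison made here. Of the 10 genes, 9 had at least 1 promoter in the RefSeq table (build GRCm38.p6), which holds 250 bases before and 50 after each listed start, with 13 promoters in all because *Tnnt2* and *Nebl* have several. Each was found once by exact match on its chromosome of GRCm39, the build of the counts. The 120 bases before the start are given for *Acta1* (chr8:124621515-124621634, minus strand) and *Actc1* (chr2:113883357-113883476, minus strand), 5′ to 3′. Capitals mark the motifs found: the CArG box bound by serum response factor (SRF), the M-CAT element bound by TEAD factors (CATTCC), and the core of the TATA box.
Acta1: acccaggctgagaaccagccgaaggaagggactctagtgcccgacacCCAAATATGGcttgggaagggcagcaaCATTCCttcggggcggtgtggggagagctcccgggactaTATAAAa
Actc1: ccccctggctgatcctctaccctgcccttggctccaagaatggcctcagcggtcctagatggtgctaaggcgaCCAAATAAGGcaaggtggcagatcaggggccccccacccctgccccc

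The search covered both strands and the whole 300 bases, and none of the matches named here overlap. With the base before the start as position -1, *Acta1* held a CArG box from -73 to -64, the M-CAT letters from -46 to -41, and the letters TATAAA from -7 to -2. *Actc1* held a CArG box from -47 to -38 and the same letters from position 34 to 39 after the listed start, but no CATTCC in this window. A CArG box was present in 1.63% of the 32851 promoters of the table and in 3 of the 13 promoters of these genes, the third being a promoter of *Nebl* with the match CCTAAATTGG from -162 to -153. CATTCC was present in 14.7% of all promoters and in 6 of the 13, 1 each of 6 genes (*Acta1*, *Tnnt2*, *Nebl*, *Tmod1*, *Tpm1*, and *Tnnc1*). TATAAA was present in 13.6% of all promoters and in 2 of the 13, those of *Acta1* and *Actc1*, whereas the MEF2 site was present in 0.557% of all promoters and in none of the 13. These matches describe the letters only, and their positions count from the listed RefSeq starts. The listed starts of *Acta1* (124621514) and *Actc1* (113883356) lie inside the annotated minus-strand genes, which extend to 124623661 and 113884043. Whether the listed starts were used in these LVs was not tested.

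Whether reads of the 2 sarcomeric actin genes could be split between them by the counting was checked on their sequences. The coding sequences of *Acta1* and *Actc1* have the same length, 1134 bases, and are identical at 977 of them (86.2%), but the longest identical run is 29 bases. No window of 100 bases of the canonical transcripts of *Acta1* or *Actc1* was found in a transcript of another gene, and of the 50-base windows, 1.94% of those of *Acta1* and 0.389% of those of *Actc1* were. *Tmod1* was the only member with windows of 100 bases found in another gene, because 1204 of its 3084 windows of 100 bases lie on the opposite strand of an overlapping gene, *Tstd2*. The sources used here do not state whether strand was used in counting, so the reads of *Tmod1* and *Tstd2* may be mixed. *Tstd2* had between 11.4 and 14.3 CPM, against 193.1 to 292.6 CPM for *Tmod1*. Over all annotated exons, *Tnni3* shares 394 bases with *Dnaaf3* on the same strand, and *Acta1*, *Tpm1*, *Neb*, and *Nebl* share 57 to 370 bases with noncoding genes on the opposite strand. *Dnaaf3* had at most 8.91 CPM, and those noncoding genes that the counts list had at most 0.317 CPM.

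The first question was how much of each thin filament transcript the ventricles contained. The 10 genes together took 2.96%, 2.90%, and 3.54% of the counts of nuclear-encoded genes in WT replicates 1, 2, and 3. In *Lztr1* R409C/+ replicates 1, 2, and 3, the share was 2.51%, 2.90%, and 3.19%. The groups overlapped, and the means of 3.13% ± 0.355 and 2.87% ± 0.341 (SD, n = 3 each) gave p = 0.5 in an exact permutation test, two-sided, in which 3 mice against 3 cannot go below 0.1. *Actc1*, cardiac α-actin, alone made up 39.6% to 50.4% of the counts of the 10 genes. By level in CPM, it ranked 18th of the 17212 genes tested, followed by *Tpm1* (α-tropomyosin) at 23, *Tnnt2* (cardiac troponin T) at 31, *Tnni3* (cardiac troponin I) at 34, and *Tnnc1* (cardiac troponin C) at 86. *Neb* ranked 10275.

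Levels of different genes were compared per length, as CPM per kb of the canonical GENCODE transcript. In WT mice, the order was *Tnni3* (2672 ± 405), *Actc1* (2574 ± 159), *Tpm1* (1989 ± 327), *Tnnt2* (1401 ± 200), *Tnnc1* (1126 ± 238), *Lmod2* (186.5 ± 16.8), *Acta1* (164.8 ± 46.6), *Tmod1* (85.2 ± 9.31), *Nebl* (39.6 ± 1.08), and *Neb* (0.174 ± 0.0328; SD, n = 3). Over all 6 mice, neighbours among the first 5 genes overlapped in this level, as did *Lmod2* and *Acta1*. *Tnnc1* was above *Lmod2*, *Acta1* above *Tmod1*, *Tmod1* above *Nebl*, and *Nebl* above *Neb* in every mouse on this scale. The order depended on the length used, since the canonical transcript of *Actc1* is 3645 bases long, against 1648 for *Acta1*. Per kb of coding sequence, *Actc1* came first in WT mice (8274 CPM per kb), followed by *Tpm1* (5096), *Tnni3* (3849), and *Tnnt2* (3072). On that scale *Acta1* (239.5) came after *Lmod2* (269.8) and *Tmod1* (250.9) in WT mice, and it was also below *Tmod1* in *Lztr1* R409C/+ mice (160.2 against 224.7).

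**Figure D1:**
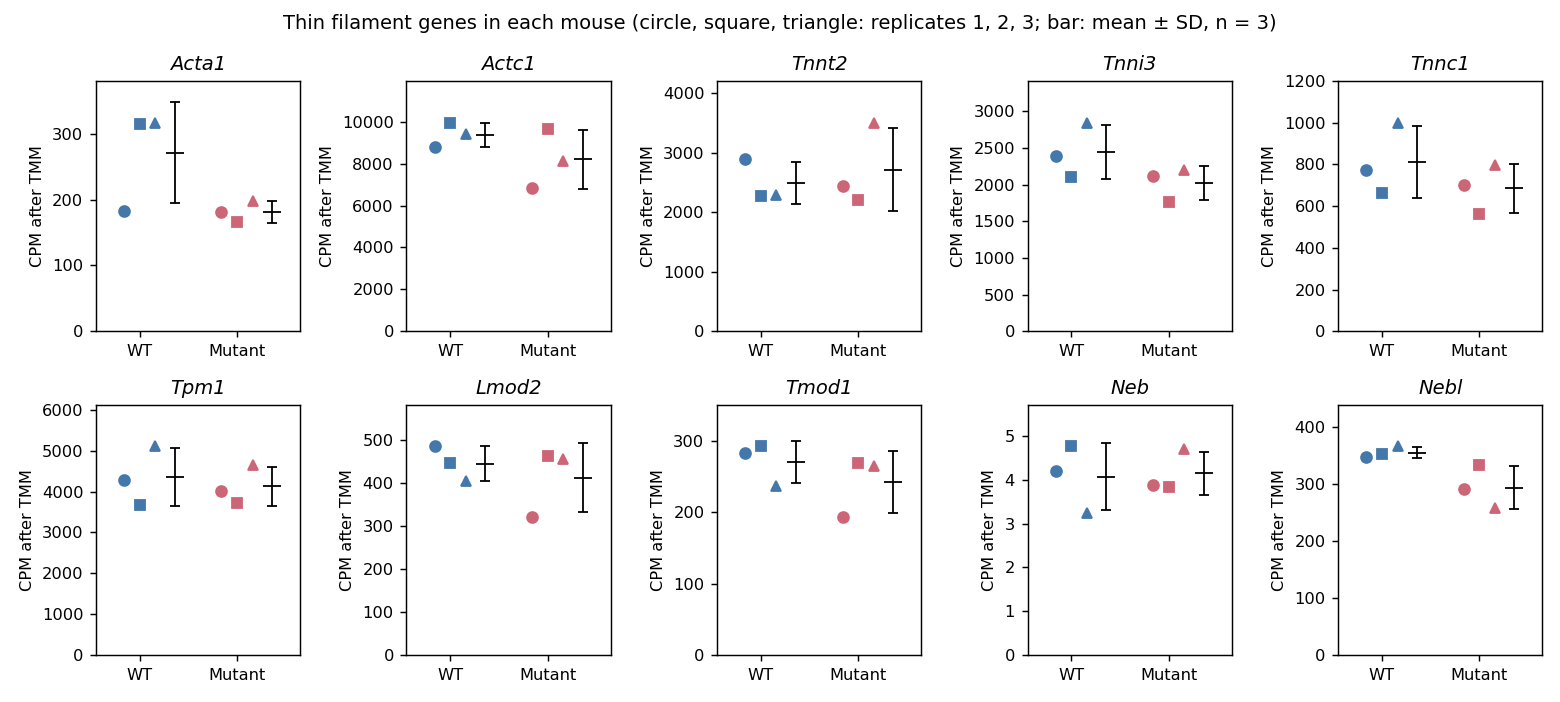
CPM after TMM scaling (y axes, linear from 0) of the 10 thin filament genes in each WT and *Lztr1* R409C/+ ("Mutant") mouse, with the mean ± SD beside each group (n = 3). Only in the panel of *Nebl* do the groups not overlap, and WT replicate 1 lies with the *Lztr1* R409C/+ mice in the panel of *Acta1*.

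The next comparison asked whether these levels differed between the genotypes. No thin filament gene passed an adjusted p of 0.05 in edgeR's quasi-likelihood test, which called 0.0407% of all genes tested. By DESeq2, which called 0.918% of all genes, none of the 10 passed either. At an unadjusted p under 0.05, 1 of the 10 (*Acta1*) was lower in *Lztr1* R409C/+ mice, against a background of 2.86% of all genes that were lower and 8.63% in either direction. Of the 10 genes, 8 had a log2 fold change below 0, as did 48.6% of all genes, and the median over the 10 was -0.18, beside 0.012 over all genes.

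**Figure D2:**
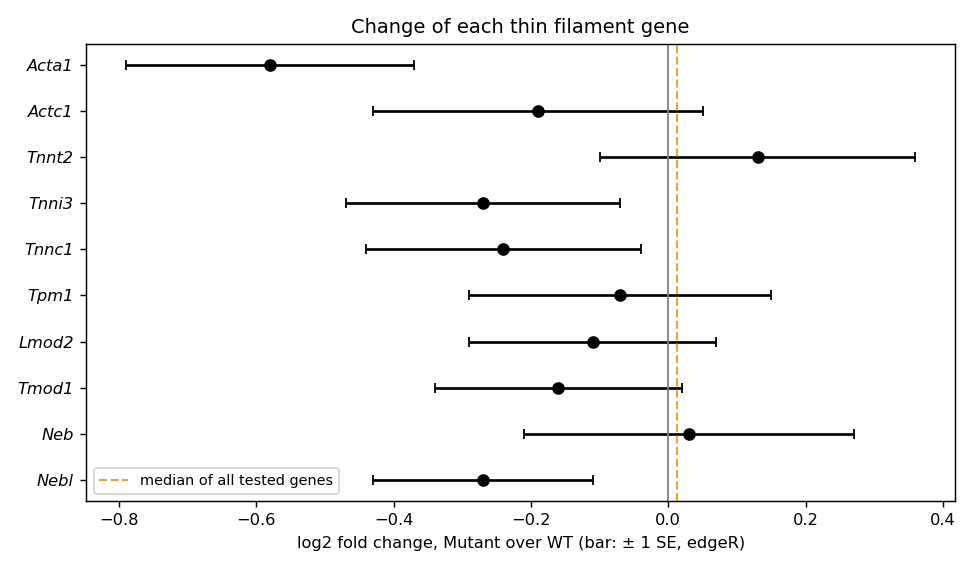
Log2 fold change of *Lztr1* R409C/+ over WT mice (x axis) for each thin filament gene, with bars of ± 1 SE from edgeR. *Acta1* lies farthest from 0 at -0.58, and *Tnnt2* and *Neb* are the genes above 0.

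*Acta1*, skeletal α-actin, which in the mouse heart is the minor sarcomeric actin, had the largest difference of the group. The gene (ENSMUSG00000031972.6) lies on the minus strand at chr8:124618501-124623661 of GRCm39. Its levels were 182.9, 315.1, and 316.9 CPM in WT replicates 1, 2, and 3. In *Lztr1* R409C/+ replicates 1, 2, and 3, they were 181.3, 165.4, and 198.4 CPM. WT replicates 2 and 3 stood above every other mouse, whereas WT replicate 1 lay within the range of the *Lztr1* R409C/+ mice, which were close to each other (181.7 ± 16.5 CPM, against 271.6 ± 76.8 in WT mice; SD, n = 3). The log2 fold change was -0.58 ± 0.21 (SE), a level 0.669 times that of WT mice, with an unadjusted p of 0.0172 in edgeR's quasi-likelihood test (adjusted p = 0.483). Over 17 other settings, the adjusted p ranged from 0.221 to 0.976, and the log2 fold change stayed below 0, between -0.80 without WT replicate 1 and -0.25 with libraries scaled to the cardiomyocyte markers. Without WT replicate 2, it was -0.47 (unadjusted p = 0.0778), and without WT replicate 3 and *Lztr1* R409C/+ replicate 1, whose mitochondrial shares stood apart, it was -0.45 (unadjusted p = 0.101).

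*Actc1* (ENSMUSG00000068614.8) lies on the minus strand at chr2:113876266-113884043. It had levels of 8792, 9953, and 9403 CPM in WT mice and 6845, 9654, and 8110 CPM in *Lztr1* R409C/+ mice. Its lowest value was that of *Lztr1* R409C/+ replicate 1, the mouse with the lowest sum of cardiomyocyte markers, and the groups overlapped through replicate 2. The log2 fold change was -0.19 ± 0.24 (adjusted p = 0.859), and it was -0.09 without replicate 1 and -0.33 without replicate 2 of the *Lztr1* R409C/+ mice.

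The ratio of *Acta1* to *Actc1* does not depend on how the libraries are scaled. *Acta1* counts were 2.08%, 3.17%, and 3.37% of *Actc1* counts in WT replicates 1, 2, and 3. They were 2.65%, 1.71%, and 2.45% in *Lztr1* R409C/+ replicates 1, 2, and 3. WT replicates 2 and 3 again had the highest ratios, and WT replicate 1 was lower than all but 1 of the *Lztr1* R409C/+ mice. The means were 2.87% ± 0.693 and 2.27% ± 0.493 (SD, n = 3), and the mean log2 ratio of *Lztr1* R409C/+ minus that of WT mice was -0.33 ± 0.29 (SE from the spread of the mice). An exact permutation test gave p = 0.3, two-sided, and 0.833 adjusted over 5 ratios. Per kb of canonical transcript, skeletal α-actin mRNA amounted to 6.35% ± 1.53 of cardiac α-actin mRNA in WT mice, against 5.02% ± 1.09 in *Lztr1* R409C/+ mice. These percentages depend on the long canonical transcript of *Actc1*. Per kb of coding sequence, 1134 bases in both genes, they were those of the counts, 2.87% and 2.27%. Leaving out WT replicate 1 moved the difference to -0.55 and leaving out *Lztr1* R409C/+ replicate 2 moved it to -0.14.

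**Figure D3:**
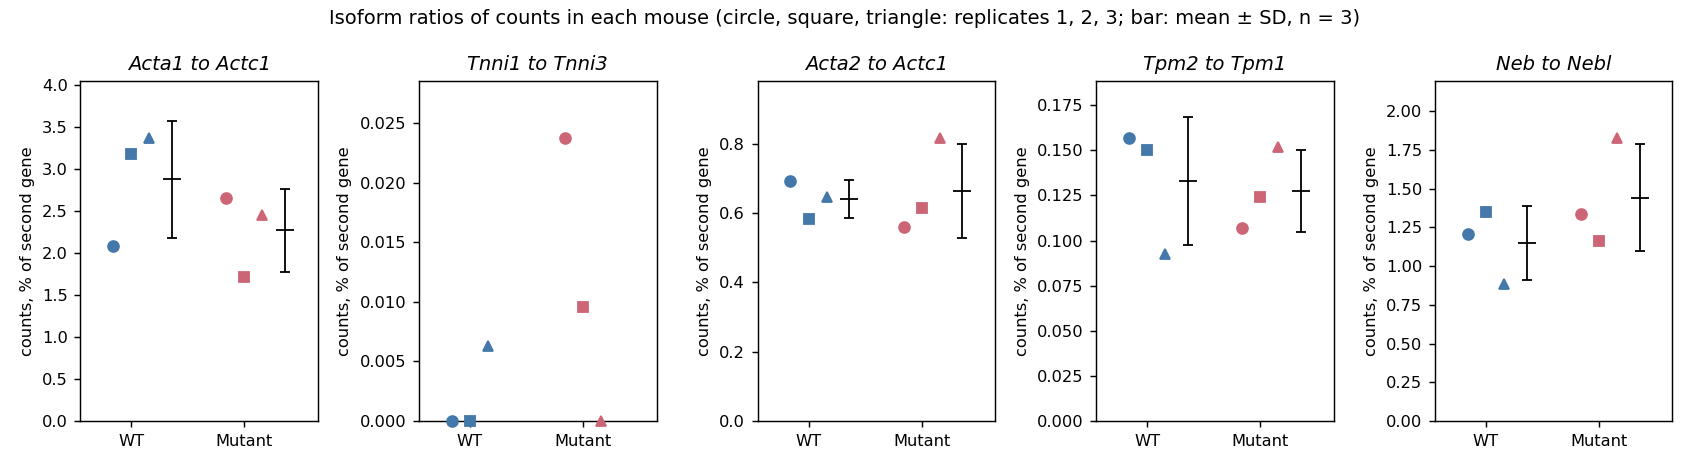
Counts of the first gene as a percentage of those of the second (y axes, linear from 0) for 5 isoform pairs in each mouse, with mean ± SD (n = 3) where no mouse is at 0. The groups overlap in all 5 panels.

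The other isoform pairs were compared in the same way, and none passed (adjusted p from 0.833 to 0.9 in exact permutation tests). Slow skeletal troponin I (*Tnni1*), the form of the fetal heart, was listed with 0, 0, and 17 counts in the WT mice and with 28, 12, and 0 counts in the mutant ones, beside 117564 to 269370 counts of *Tnni3*. It was therefore at 0 in 3 of the 6 mice and low in the others, with at most 0.505 CPM. Smooth muscle α-actin (*Acta2*) amounted to 0.640% ± 0.0540 of *Actc1* in WT mice, against 0.663% ± 0.137 in *Lztr1* R409C/+ mice. β-tropomyosin (*Tpm2*) amounted to 0.133% ± 0.0355 and 0.127% ± 0.0226 of *Tpm1*. *Neb* had 1.15% ± 0.238 and 1.44% ± 0.349 of the counts of *Nebl* (SD, n = 3), although its transcript is 23381 bases long, against 8993 for *Nebl*.

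The troponin genes were among the most abundant transcripts and did not pass the test. *Tnnt2* measured 2898, 2275, and 2292 CPM in WT mice and 2439, 2208, and 3508 CPM in *Lztr1* R409C/+ mice. Replicate 3 of the latter was the highest of the 6 mice and replicate 2 the lowest, and the log2 fold change of 0.13 ± 0.23 turned to -0.10 without replicate 3. *Tnni3* measured 2393, 2107, and 2844 CPM in WT mice and 2122, 1756, and 2195 CPM in *Lztr1* R409C/+ mice (log2 fold change, -0.27 ± 0.20; adjusted p = 0.752). *Tnnc1* measured 772.0, 664.2, and 1000 CPM in WT mice and 701.3, 560.6, and 795.1 CPM in *Lztr1* R409C/+ mice (log2 fold change, -0.24 ± 0.20; adjusted p = 0.781). Without WT replicate 3, these were -0.15 for *Tnni3* and -0.07 for *Tnnc1*, and *Tnnc1* was at -0.13 without *Lztr1* R409C/+ replicate 2 and at -0.37 without WT replicate 2. With a correction for gene length, they were -0.44 and -0.43 (unadjusted p = 0.0357 and 0.0353, adjusted p = 0.591 and 0.590 in edgeR's test). For both genes WT replicate 3 was the highest and *Lztr1* R409C/+ replicate 2 the lowest of the 6 mice, and the groups overlapped. The level of *Tpm1* was 4280, 3681, and 5108 CPM in WT mice and 4024, 3725, and 4662 CPM in *Lztr1* R409C/+ mice, with a log2 fold change of -0.07 ± 0.22 that became 0.05 without WT replicate 3.

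At the pointed end of the filament, *Lmod2* measured 486.0, 446.4, and 405.7 CPM in WT mice and 320.4, 462.6, and 457.3 CPM in *Lztr1* R409C/+ mice. *Tmod1* measured 283.2, 292.6, and 237.2 CPM in WT mice and 193.1, 269.1, and 265.8 CPM in *Lztr1* R409C/+ mice. In both, *Lztr1* R409C/+ replicate 1 stood below the other 5 mice, and replicates 2 and 3 lay within the WT range. The log2 fold changes were -0.11 ± 0.18 for *Lmod2*, which became 0.04 without *Lztr1* R409C/+ replicate 1, and -0.16 ± 0.18 for *Tmod1*, which became -0.03 without that mouse, and neither passed (adjusted p = 0.905 and 0.845 in edgeR's test).

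*Nebl* was the only member whose groups did not overlap. It (ENSMUSG00000053702.17) lies at chr2:17347467-17736275 on the minus strand. Its levels were 347.8, 352.6, and 366.5 CPM in WT mice and 291.7, 333.0, and 257.8 CPM in *Lztr1* R409C/+ mice. WT mice were close to each other (355.6 ± 9.68 CPM), whereas *Lztr1* R409C/+ mice were more spread (294.1 ± 37.6 CPM; SD, n = 3). Of all genes tested, 7.23% were likewise lower in every *Lztr1* R409C/+ than in every WT mouse, and 1 of the 10 thin filament genes is near that background. The log2 fold change of -0.27 ± 0.16 did not pass (unadjusted p = 0.111, adjusted p = 0.666), and it lay between -0.38 and -0.19 when any mouse was left out. *Neb*, by contrast, measured 4.21, 4.77, and 3.25 CPM in WT mice and 3.90, 3.85, and 4.72 CPM in *Lztr1* R409C/+ mice, from 216 to 342 counts per library, with a log2 fold change of 0.03 ± 0.24.

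The log2 fold changes of all 10 members were higher when libraries were scaled to cardiomyocyte markers. The largest part of that sum in WT mice is *Myh6*, which is also in the fetal and hypertrophy list, so this scaling depends on how *Myh6* itself differs. With libraries scaled to the summed cardiomyocyte markers, the median of all genes moved to 0.35 and that of the 10 genes to 0.14, and all members except *Acta1* had a log2 fold change above 0. With library size only, the median of all genes moved to -0.14 and that of the members to -0.30, with 9 members below 0. With upper quartile scaling and DESeq2 size factors, 8 members were below 0, as under TMM. Relative to the median of all genes, 8 of the 10 genes were below it under TMM scaling, with the cardiomyocyte markers, and with library size only, and *Acta1* stood at -0.59, -0.61, and -0.62. Without WT replicate 3 and *Lztr1* R409C/+ replicate 1, 0 of the 10 genes passed and their median was -0.08. The part of the mitochondrial share and of the marker levels in these values was not tested.

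**Figure D4:**
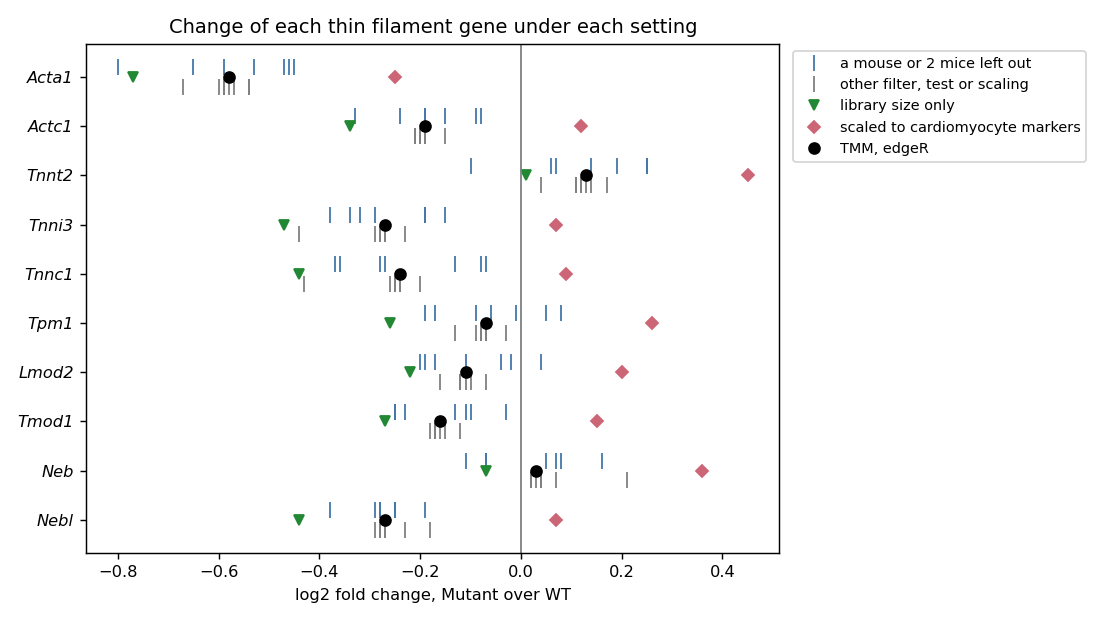
Log2 fold change of *Lztr1* R409C/+ over WT mice (x axis) for each thin filament gene under TMM scaling with edgeR (circle) and under each other setting. The points scaled to cardiomyocyte markers (diamonds) lie to the right of 0 for all genes but *Acta1*, at -0.25.

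Because the ratio of counts of 2 genes in a library is free of scaling, all 45 pairs of members were described by the SD over the 6 mice of their log2 ratio, which had a median of 0.32. *Lmod2* and *Tmod1*, the pointed-end genes, kept the steadiest ratio (SD, 0.07), with 1.53 to 1.72 *Lmod2* counts per *Tmod1* count. *Tnni3* and *Tnnc1*, whose products bind each other in the troponin complex, followed (SD, 0.08), with 2.76 to 3.17 *Tnni3* counts per *Tnnc1* count. *Tnnt2*, the remaining troponin gene, varied more against them (SD, 0.32 against each), and *Actc1* varied least against *Tmod1*, *Nebl*, and *Lmod2* (SD, 0.14 to 0.16). Every pair with *Acta1* had an SD of at least 0.34, and the widest was *Acta1* with *Tnnt2* (SD, 0.56). The same SD was not computed over pairs of other genes, so these values have no background beside them. *Tnni3* and *Tnnc1* also have the shortest canonical transcripts of the group (916 and 721 bases). The part of transcript length or of shared function in the steady ratios was not tested.

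In 2 of the 45 pairs (*Tnni3* and *Tnnc1*, each with *Tpm1*) the genotypes did not overlap, as in 14.4% of all pairs of genes with a mean of at least 10 CPM, so that the count is not above that background. *Tnni3* had 0.559, 0.572, and 0.557 counts per *Tpm1* count in WT mice, against 0.527, 0.471, and 0.471 in *Lztr1* R409C/+ mice. *Tnnc1* had 0.180, 0.180, and 0.196 counts per *Tpm1* count in WT mice, against 0.174, 0.150, and 0.171 in *Lztr1* R409C/+ mice. For *Tnnc1*, much of the difference rested on *Lztr1* R409C/+ replicate 2, the mouse at 0.150. The mean log2 ratios of *Lztr1* R409C/+ minus those of WT mice were -0.20 and -0.17, and neither passed (exact permutation p = 0.1 each, the smallest possible, and 0.865 after adjustment over the 45 pairs). For the remaining troponin gene, *Tnnt2*, the same difference against *Tpm1* was 0.18, with overlap (exact permutation p = 0.6). The pairs share genes, so they are not independent.

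**Figure D5:**
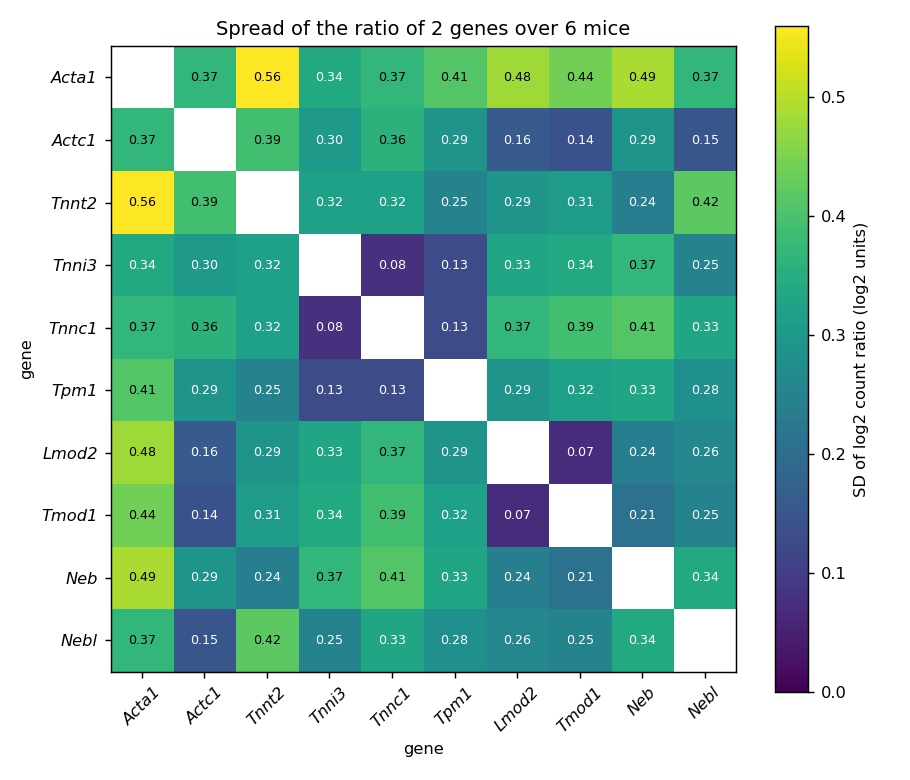
SD over 6 mice of the log2 ratio of counts (color, in log2 units, with the value in each cell) for every pair of thin filament genes. The darkest cells are *Lmod2* with *Tmod1* at 0.07 and *Tnni3* with *Tnnc1* at 0.08, and the row of *Acta1* is the brightest.

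The genes whose pattern over the 6 mice was closest to that of *Acta1* were sought among the 7748 genes with a mean of at least 10 CPM, by the root mean square difference of centered log2 CPM. They were *Nnt* (0.113), the mitochondrial transhydrogenase, *Dusp8* (0.173), a phosphatase of MAP kinases, and *Gm50388* (0.186). *Nnt* measured 249, 454, and 388 CPM in WT mice and 223, 217, and 302 CPM in *Lztr1* R409C/+ mice, so that, as with *Acta1*, WT replicate 1 lay within the range of the *Lztr1* R409C/+ mice. *Dusp8* measured 42.4, 56.7, and 61.9 CPM in WT mice and 37.9, 43.3, and 43.1 CPM in *Lztr1* R409C/+ mice, with the same overlap. *Gm50388* did not overlap, with 17.8, 22.6, and 21.8 CPM in WT mice and 13.1, 10.9, and 13.8 CPM in *Lztr1* R409C/+ mice, and had an adjusted p of 0.0287 by DESeq2, against 0.225 by edgeR. For *Actc1*, the closest were *Bhlhe40*, *Tfg*, and *Nedd4*, each with a difference of 0.036. These 6 genes are a description of likeness over 6 mice.

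The rest of the thin filament and its surroundings was described with 4 gene lists, in which no gene passed an adjusted p of 0.05 by edgeR or DESeq2. Of 15 tested genes among 17 other thin filament isoforms, 11 were higher and 4 lower in log2 fold change, with a median of 0.25, and 3 had an unadjusted p under 0.05, all of them higher, as had 5.77% of all genes. *Tpm4*, a tropomyosin of nonmuscle cells, measured 85.6, 86.5, and 74.9 CPM in WT mice and 122.8, 115.6, and 112.8 CPM in *Lztr1* R409C/+ mice, without overlap (log2 fold change, 0.51 ± 0.15; adjusted p = 0.330). With libraries scaled to the cardiomyocyte markers, its log2 fold change was 0.87. With library size only, it was 0.36 (unadjusted p = 0.27 in edgeR's test). *Tnnt1*, slow skeletal troponin T, measured 4.54, 3.70, and 4.46 CPM in WT mice and 5.22, 6.06, and 9.04 CPM in *Lztr1* R409C/+ mice (log2 fold change, 0.68 ± 0.24; adjusted p = 0.475). Without *Lztr1* R409C/+ replicate 3, its highest mouse, the log2 fold change of *Tnnt1* was 0.41 (unadjusted p = 0.105 in edgeR's test), and without WT replicate 2 it was 0.59 (unadjusted p = 0.0611). The other gene of the 3 was β-actin (*Actb*; log2 fold change, 0.43 ± 0.17; adjusted p = 0.533), and 5 genes of this list were higher in every *Lztr1* R409C/+ than in every WT mouse, as were 8.3% of all genes. None of 4 macrophage markers passed edgeR's test (*Csf1r*, *Cd68*, *C1qa*, and *Adgre1*; adjusted p from 0.0985 to 0.405), but all 4 had a log2 fold change above 0, and their summed level was 61.2 to 63.0 CPM in WT mice and 98.5 to 121.5 CPM in *Lztr1* R409C/+ mice. The sum of 4 hemoglobin genes was 575 to 1470 CPM in WT mice and 1030 to 2600 CPM in *Lztr1* R409C/+ mice, that of 4 fibroblast markers 484 to 576 and 511 to 579 CPM, that of 4 endothelial markers 460 to 630 and 373 to 656 CPM, and that of 4 smooth muscle markers 74.5 to 78.9 and 46.6 to 80.4 CPM. *Acta2* carried most of the smooth muscle sum, and 3 of its 4 markers had a log2 fold change below 0, with *Myh11* (-0.71 ± 0.23; adjusted p = 0.438) and *Tagln* (-0.65 ± 0.23; adjusted p = 0.470) lower in every *Lztr1* R409C/+ than in every WT mouse, as were 7.23% of all genes. The sum of 6 skeletal muscle markers was 0.311 to 1.66 CPM in WT mice and 1.26 to 2.07 CPM in *Lztr1* R409C/+ mice. All 4 of them that were tested had a log2 fold change above 0, and none passed. The part of these cell types in the isoform levels was not tested.

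Of 18 factors that cap, assemble, or turn over actin filaments, 5 were higher and 13 lower, with a median log2 fold change of -0.08. *Klhl41*, a kelch protein that binds nebulin, measured 72.1, 69.7, and 70.9 CPM in WT mice and 51.9, 64.7, and 50.6 CPM in *Lztr1* R409C/+ mice, without overlap (log2 fold change, -0.35 ± 0.15; unadjusted p = 0.0435, adjusted p = 0.567 in edgeR's test). *Csrp3*, the muscle LIM protein of the Z-disc, measured 491.7, 480.3, and 541.6 CPM in WT mice and 590.7, 618.6, and 652.4 CPM in *Lztr1* R409C/+ mice, without overlap (log2 fold change, 0.30 ± 0.16; adjusted p = 0.623). Of the 18 genes, 2 (*Klhl41* and *Daam1*) were lower and 1 (*Csrp3*) was higher in every *Lztr1* R409C/+ than in every WT mouse, as were 7.23% and 8.3% of all genes. With libraries scaled to the cardiomyocyte markers, *Klhl41* was at -0.01 and *Csrp3* at 0.63, and with library size only *Csrp3* was at 0.13.

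Of 10 transcription factors and coactivators of muscle genes, 5 were higher and 5 lower (median, -0.01), with log2 fold changes from -0.18 to 0.16. *Srf*, whose product binds the CArG box, measured 79.7, 74.0, and 65.2 CPM in WT mice and 69.7, 65.9, and 79.1 CPM in *Lztr1* R409C/+ mice, and is named here beside the promoters after its values were seen. The smallest p belonged to *Tead1*, a factor that binds the M-CAT element (log2 fold change, -0.18 ± 0.15; adjusted p = 0.782), and *Mrtfb*, a coactivator of SRF (-0.15 ± 0.18; adjusted p = 0.853). Without WT replicate 2, these were -0.11 for *Tead1* and -0.03 for *Mrtfb*, and *Mrtfb* was at -0.05 without *Lztr1* R409C/+ replicate 1, at -0.23 without replicate 2 of that group, and at -0.27 without WT replicate 3. With a correction for gene length, they were -0.07 and -0.06. *Tead1* was the 1 gene of the 10 that was lower in every *Lztr1* R409C/+ than in every WT mouse, as were 7.23% of all genes. In the fetal and hypertrophy program, to which *Acta1* belongs by background knowledge, 1 of 7 genes was higher and 6 were lower, with a median log2 fold change of -0.21. The list holds genes that this program is known to raise (such as *Nppa*, *Nppb*, and *Myh7*) and genes that it is known to lower (*Atp2a2* and *Myh6*), so its count and median give no direction of the program. The log2 fold changes were -0.21 for *Nppb* and -0.31 for *Myh7*, against -0.39 for *Myh6*, and the groups overlapped in each. *Nppb* measured 89.5, 131.4, and 251.9 CPM in WT mice and 161.6, 98.0, and 148.6 CPM in *Lztr1* R409C/+ mice. Its value below 0 thus rested on WT replicate 3. *Myh7* at 216.6 CPM and *Myh6* at 6330 CPM were lowest in *Lztr1* R409C/+ replicate 1. The other mice had 404.8 to 492.8 CPM of *Myh7* and 11880 to 17350 CPM of *Myh6*. The gene above 0 was *Nppa*, atrial natriuretic peptide, with 37.6, 49.9, and 76.0 CPM in WT mice and 52.9, 106.5, and 76.3 CPM in *Lztr1* R409C/+ mice (log2 fold change, 0.53 ± 0.28; adjusted p = 0.643). Its value rested on single mice, being 0.24 without *Lztr1* R409C/+ replicate 2, 0.32 without WT replicate 1, and 0.84 without WT replicate 3. Without WT replicate 3 and *Lztr1* R409C/+ replicate 1, it was 1.06 (adjusted p = 0.295). *Atp2a2*, the calcium pump of the sarcoplasmic reticulum, measured 13810, 14290, and 14800 CPM in WT mice and 8720, 11630, and 10810 CPM in *Lztr1* R409C/+ mice, without overlap (log2 fold change, -0.46 ± 0.24; adjusted p = 0.630). It was the 1 gene of these 7 without overlap, against 7.23% of all genes that were likewise lower. With libraries scaled to the cardiomyocyte markers, its log2 fold change was -0.15.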

How the data were processed

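RNA from the LVs of 3 WT and 3 *Lztr1* R409C/+ mice was sequenced, 1 library per mouse. Per the labels and the study's methods, the authors trimmed reads with Trim Galore, aligned them to GRCm39 with HISAT2, excluded rRNA, and used StringTie and edgeR. The counts that the authors deposited are whole numbers per gene without normalization, and how they were taken from StringTie and whether strand was used is not given in the sources used here. A second deposited table holds the authors' edgeR comparison of 12629 genes, with log2 fold changes and average log2 CPM. Its other columns, also deposited by the authors, are p-values and adjusted p-values, and only its gene names were used.

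Counts were analyzed in R 4.3.3 with edgeR 4.0.16 (filterByExpr, TMM, robust quasi-likelihood test, Benjamini-Hochberg over 17212 genes, threshold 0.05, two-sided), with all 6 mice and no covariate. Mice with the same replicate number were not treated as pairs. Nothing in the labels says more on how the mice of a group are related. The p-values set each difference against the spread between these 6 libraries, which can hold technical differences as well as those between mice. In edgeR's test, that spread was moderated over all genes tested. Total counts of 66130887 to 72641124 set the counting precision, and the common biological coefficient of variation was 26.1%. Ratios of counts were compared as mean log2 ratios with a pseudocount of 0.5 by exact permutation tests. Positions, transcript lengths, and overlaps came from GENCODE M39 on GRCm39, with 1 canonical transcript per gene. Promoters came from RefSeq.

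Beside the marker genes of each cell type, the genes named are all members, the genes of the isoform ratios, for each list the 2 genes of lowest unadjusted p, and the 3 genes closest in pattern to *Acta1* and *Actc1*. *Actb*, *Srf*, *Daam1*, *Nppb*, *Myh7*, *Myh6*, *Myh11*, *Tagln*, and the overlapping genes were named after their values were seen. The members and lists were chosen with earlier results of these data known. The steps were tested on simulated data with known changes. Of 200 genes raised or lowered by 1 log2 unit among 17212, the edgeR test called 83, and it called 9 unchanged genes. A gene that did not pass may therefore still differ between the genotypes. Alternatives were other scalings, DESeq2 1.42.0, other filters on low counts, a gene length correction, leaving out genes encoded by mitochondria, a replicate block, and omission of mice.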

Additional observations from a re-analysis of the deposited data

How the results depend on the processing

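Under 17 other settings of the gene-wise test, 0 of the 10 thin filament genes and 0 genes of the 4 lists passed an adjusted p of 0.05. The settings did change the number of all genes called, which was 7: it was 21 with library size only, 18 with cardiomyocyte markers as library size, 158 with DESeq2, 20 without a filter, 1 with the replicate block, and 1 without WT replicate 3 and *Lztr1* R409C/+ replicate 1, an omission chosen after the data were seen. It lay between 2 and 4 when any mouse was left out (4 without WT replicate 1 or 2, 3 without WT replicate 3 or *Lztr1* R409C/+ replicate 3, and 2 without *Lztr1* R409C/+ replicate 1 or 2). Fewer samples were tested in these fits, and the other causes were not tested.

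The labels do not say whether same-numbered mice form pairs. Deviations of same-numbered mice from their group means correlated at -0.001, 0.022, and -0.057, against -0.05 to 0.048 for mice of different numbers. With so few mice per group, these values cannot decide whether same-numbered mice shared a litter or batch. With the replicate block, the log2 fold change of *Acta1* was -0.54 (adjusted p = 0.683), and the *Acta1* to *Actc1* difference, which pairing cannot change, was -0.33 (exact permutation within pairs, p = 0.5, where the smallest possible is 0.25). That difference lay between -0.55 and -0.14 when any mouse was left out, and was -0.34 from group means and -0.33 with *Acta2* added to *Actc1*.

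Signs that turned belonged to differences that had not passed. With cardiomyocyte markers as library size, the log2 fold changes were 0.12 for *Actc1*, 0.07 for *Tnni3* and *Nebl*, 0.09 for *Tnnc1*, 0.26 for *Tpm1*, 0.20 for *Lmod2*, 0.15 for *Tmod1* and *Acta2*, 0.16 for *Tead1* and *Bhlhe40*, 0.17 for *Mrtfb*, 0.22 for *Tpm2*, 0.12 for *Tfg*, and 0.05 for *Nedd4*. With library size only, *Neb* was at -0.07. *Tpm1* was at 0.05 and *Neb* at -0.11 without WT replicate 3, and at 0.08 and -0.07 without WT replicate 3 and *Lztr1* R409C/+ replicate 1, where *Acta2* was at 0.08. Leaving out *Lztr1* R409C/+ replicate 1 gave 0.04 for *Lmod2*, 0.06 for *Acta2*, 0.04 for *Tpm2*, and 0.08 for the *Tpm2* to *Tpm1* ratio. Without replicate 2 of that group *Tpm2* was at 0.00, and without replicate 3 *Tnnt2* was at -0.10, *Neb* at -0.07, and the *Acta2* to *Actc1* ratio at -0.13. Without WT replicate 1, *Tpm2* was at 0.06 and the *Tpm2* to *Tpm1* ratio at 0.10, and without WT replicate 2 the *Acta2* to *Actc1* ratio was at -0.03 and the *Tpm2* to *Tpm1* ratio at 0.07. Over the omissions of single mice, the members ranged from -0.19 to 0.05 for *Tpm1*, -0.20 to 0.04 for *Lmod2*, -0.10 to 0.25 for *Tnnt2*, and -0.11 to 0.16 for *Neb*. Outside the members, the range was -0.30 to 0.06 for *Acta2* and -0.34 to 0.06 for *Tpm2*. For the ratios, it was -0.28 to 0.10 for *Tpm2* to *Tpm1* and -0.13 to 0.15 for *Acta2* to *Actc1*. The cause of these turns was not tested. Depth limits *Tnni1*, at 0 to 28 counts per library.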
